A study of Mus musculus with 6 samples.

Results

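The 31 genes described here encode enzymes and regulators of glycolysis and gluconeogenesis and the transporters that carry glucose or glucose 6-phosphate. They were picked by name and matched to rows of the count table through their Ensembl IDs in the GRCm38 annotation. All 31 were found among 54532 Ensembl gene rows, and all 31 passed the filter on low counts that left 14145 genes for testing. Liver RNA came from 6 mice, 1 library each. Of these, 3 were CD44 knockout mice (KO; Cd44-/-, B6.Cg-Cd44tm1Hbg/J), which lack the gene in all cells and not only in myeloid cells, and 3 were wild-type mice (WT). For 10 days all 6 had a liquid Lieber-DeCarli diet in which ethanol made up 5% of the volume. They were given ethanol once by gavage (5 g/kg) on day 11, and their livers were collected 9 hours afterwards. Knockout and wild-type mice therefore share the ethanol exposure, and livers without ethanol were not analysed here. Sex, age, the strain of the wild-type mice and food intake after the gavage are not stated in the labels.

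Glycolysis splits glucose into pyruvate, and gluconeogenesis runs the path backwards in the liver so that glucose can be released into the blood. Most steps are catalysed by the same enzyme in both directions, and the direction is set at the few steps where opposing enzymes act: hexokinases against glucose 6-phosphatase, phosphofructokinase against fructose 1,6-bisphosphatase, and pyruvate kinase against pyruvate carboxylase with phosphoenolpyruvate carboxykinase. Hepatocytes, the main cells of the liver, use isoforms of their own at these steps, such as the pyruvate kinase Pklr and the glucose transporter Slc2a2, whereas macrophages, stellate cells and bile duct cells use the hexokinases Hk1, Hk2 and Hk3, Pkm and Slc2a1. By this textbook knowledge the genes were put into 12 hepatocyte isoforms and liver regulators, 11 isoforms of other cells and 8 enzymes that most cells share. Earlier results of these data were known when the genes and classes were chosen, so the grouping is not independent of them. The library is of whole liver, so fewer cells of a type and less RNA per cell cannot be told apart.

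Libraries held 15429784 to 19293777 reads assigned to Ensembl genes. Levels are given as CPM, which sets counts in proportion to library size after scaling by edgeR's TMM factors, and the floor of 3 counts equals 0.155 to 0.194 CPM, depending on the library. Hepatocyte markers were abundant in every library: the summed level of 14 such genes was 98797 to 123588 CPM in knockout and 94692 to 109735 CPM in wild-type livers. Cd44, the targeted gene, had 1, 0 and 0 counts in knockout libraries and 590, 175 and 568 counts in wild-type libraries, so no library went against its label. Wild-type mouse 3 stood apart over all tested genes and for several liver genes named below. Its rank correlation (Spearman, over all tested genes) with the other libraries was 0.958 to 0.969, against 0.972 to 0.987 among the others. Fold changes are knockout over wild-type on the log2 scale ± standard error, from edgeR's quasi-likelihood test with Benjamini-Hochberg adjustment over all 14145 genes. Means are given ± SD with n = 3 mice per genotype.

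Of the 11 isoforms of other cells, 9 had lower means in the knockout livers, led by the pyruvate kinase Pkm and the hexokinase Hk3, while the median over the shared enzymes was near that of all genes. Of the 31 genes, 22 had a lower and 9 a higher mean in the knockout, beside 51.1% lower and 48.9% higher among all tested genes. In edgeR 0 of the 31 passed an adjusted p of 0.05, a threshold that 2 of all 14145 genes passed (0.0141%). At an unadjusted p under 0.05 stood 6 of the 31, all lower in the knockout, beside 7.59% lower and 5.22% higher among all genes. These were Pkm, Hk3, Pfkp, Pfkm, Hk2 and Pck1. The number depended on single libraries, with 2 such genes without knockout 1 and 3 without knockout 3. The 3 knockout and 3 wild-type values were fully separate for 6 of the 31, all lower in the knockout (Pkm, Hk3, Pfkm, Hk2, Pck1 and Aldoa), beside 9.42% lower and 8.81% higher of all genes. DESeq2 called 2 of the 31 at an adjusted p of 0.05, Pkm and Pck1, both lower, where it called 2.03% of all genes, and limma-voom called 0 of the 31 and 0 of all genes.

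By class, the median log2 fold change was −0.45 over the 11 isoforms of other cells, of which 9 had a lower mean and 5 an unadjusted p under 0.05. It was −0.24 over the 12 hepatocyte isoforms, of which 8 had a lower mean and 1 an unadjusted p under 0.05, and −0.05 over the 8 shared enzymes, of which 5 had a lower mean and 0 an unadjusted p under 0.05. Over all tested genes the median was −0.01. Leaving out 1 library at a time, the median of the isoforms of other cells lay between −0.57 and −0.37. That of the hepatocyte isoforms came to −0.02 without wild-type 2 and −0.36 without wild-type 1.

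**Figure D1:**
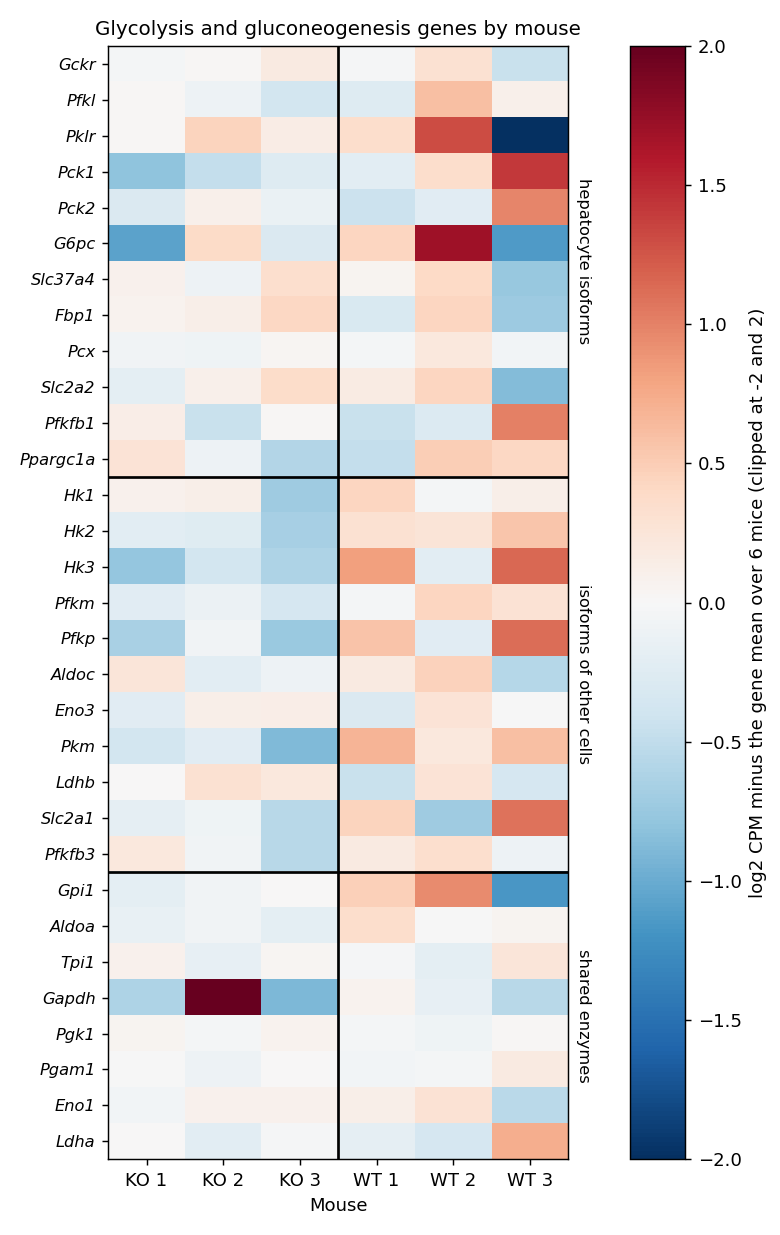
Each cell gives the log2 CPM of 1 gene (row) in 1 mouse (column) minus the mean of that gene over the 6 mice, with red above and blue below the mean and values clipped at −2 and 2. In the middle block, Hk2, Hk3, Pfkm and Pkm are higher in each wild-type mouse than in any knockout mouse, and in the upper block wild-type mice 2 and 3 stand at opposite ends for Pklr, G6pc and Slc2a2.

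**Figure D2:**
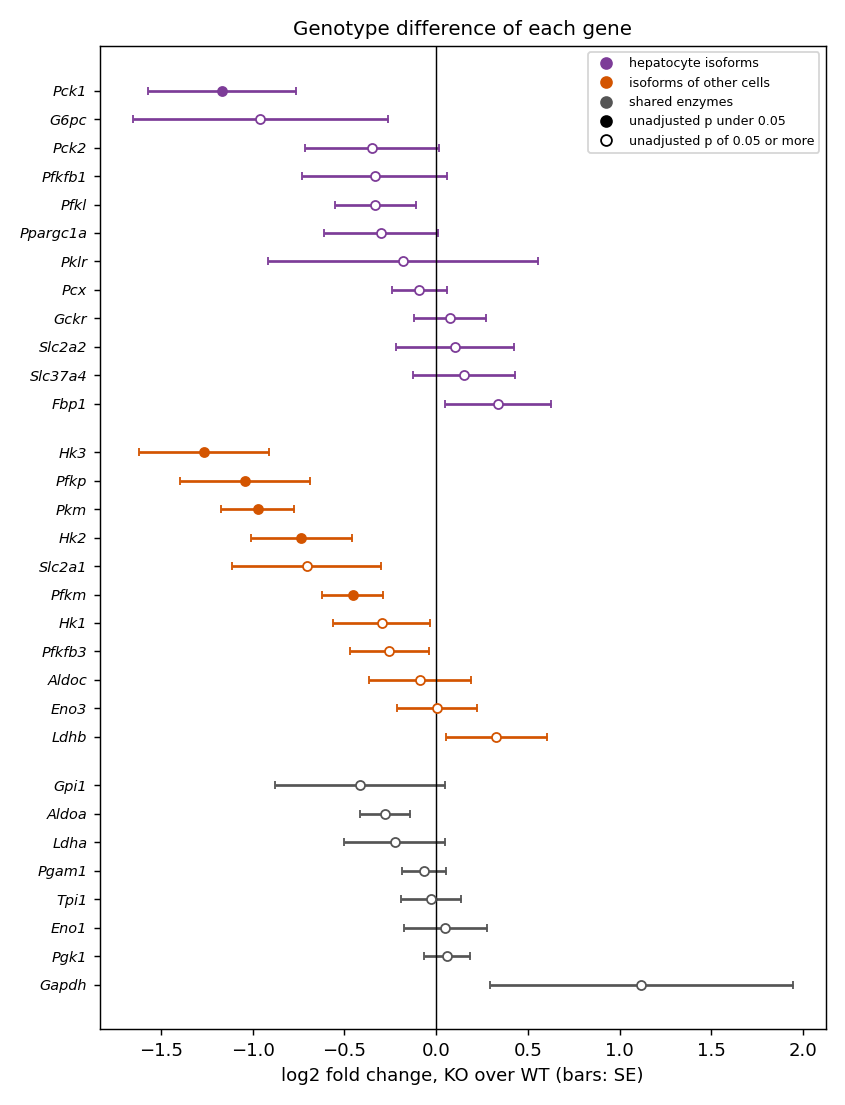
Points are the log2 fold change of each gene, knockout over wild-type, and bars its standard error, with filled points at an unadjusted p under 0.05. The filled points are Pck1 among the hepatocyte isoforms and Hk3, Pfkp, Pkm, Hk2 and Pfkm among the isoforms of other cells, between −1.27 and −0.45.

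Pkm encodes the pyruvate kinase of most cells outside the hepatocyte, including macrophages, and makes the M1 and M2 forms by splicing, which a gene count does not separate (ENSMUSG00000032294; chromosome 9, 59656368 to 59679375, plus strand, GRCm38). Its level was 23.4, 25.9 and 16.3 CPM in knockout mice 1, 2 and 3, against 48.3, 34.8 and 45.8 CPM in wild-type mice 1, 2 and 3. Every knockout liver lay below every wild-type liver, and the lowest wild-type value was that of mouse 2. The means were 21.9 ± 4.96 CPM in knockout and 42.9 ± 7.18 CPM in wild-type livers, a log2 fold change of −0.97 ± 0.20 with an adjusted p of 0.217 in edgeR (unadjusted p = 0.00128) and 0.00630 in DESeq2. Over the alternatives tried, the edgeR, DESeq2 or limma adjusted p ran from 0.00630 to 0.698, and the fold change stayed within −1.11 to −0.80 when any 1 library was left out. In a transcript model of Pkm, 34.4% of the 50-base windows also occur in transcripts of 8 other genes, and reads from these windows may be missing or shared.

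The RefSeq promoter of Pkm that reaches from 250 bases before to 50 bases after its first start is shown because Pkm had the lowest p of the 31 genes. It lies at chr9:59656326-59656625 (GRCm38.p6, plus strand). Capitals mark a GC box (GGGCGG or CCGCCC, on either strand), which begins 70 bases before the start, and the core of a cAMP response element (ACGTCA or TGACGT), which begins 28 bases after it.
Pkm promoter: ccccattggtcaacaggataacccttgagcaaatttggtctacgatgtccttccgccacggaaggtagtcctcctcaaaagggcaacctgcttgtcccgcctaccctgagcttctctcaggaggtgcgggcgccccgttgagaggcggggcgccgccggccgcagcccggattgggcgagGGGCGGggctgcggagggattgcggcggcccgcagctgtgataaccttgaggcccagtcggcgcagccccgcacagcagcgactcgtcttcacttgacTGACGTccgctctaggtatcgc
A GC box occurs in 35.7% of the 32851 RefSeq promoters of this length and the cAMP element core in 7.51%; a match is a description of the letters only.

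The hexokinases phosphorylate glucose on entry. Hk3, the form of myeloid cells (ENSMUSG00000025877; chromosome 13, 55005985 to 55021385, minus strand), was at 2.32, 3.11 and 2.61 CPM in knockout mice 1, 2 and 3, against 7.02, 3.46 and 8.87 CPM in wild-type mice 1, 2 and 3. The knockout values lay close together and below all wild-type values, of which mouse 2 had the lowest. The log2 fold change was −1.27 ± 0.35 (edgeR adjusted p = 0.234; 0.0563 in DESeq2), and −1.55 with an adjusted p of 0.0429 without wild-type 2. Over all alternatives the adjusted p of Hk3 ran from 0.0429 to 0.711. Hk3 shares 34 exon bases with Unc5a on the opposite strand and rests on 35 to 174 counts per library. Hk2, the inducible form of muscle and dividing cells (ENSMUSG00000000628; chromosome 6, 82725025 to 82774454, minus strand), was at 1.79, 1.75 and 1.303 CPM in the knockout livers and 2.56, 2.48 and 3.06 CPM in the wild-type livers. The genotypes did not overlap at a low level of 19 to 60 counts per library (log2 fold change −0.73 ± 0.27, edgeR adjusted p = 0.325). Hk1, the housekeeping form, overlapped between genotypes, at 3.91 to 6.96 CPM in knockout livers and 6.20 to 8.59 CPM in wild-type livers (−0.30 ± 0.26, adjusted p = 0.708).

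Phosphofructokinase commits sugar to glycolysis and is built from a liver, a muscle and a platelet subunit. The platelet subunit gene Pfkp (ENSMUSG00000021196; chromosome 13, 6579768 to 6648777, minus strand) was at 3.92, 5.81 and 3.63 CPM in knockout mice 1, 2 and 3, against 9.08, 5.22 and 13.2 CPM in wild-type mice 1, 2 and 3. Wild-type mouse 2 lay among the knockout mice, and wild-type mouse 3 was highest. The log2 fold change of −1.04 ± 0.35 (edgeR adjusted p = 0.294) came to −0.67 without wild-type 3. Pfkp shares 748 exon bases with the more highly counted Pitrm1 on the opposite strand and is uncertain for this reason. The muscle subunit gene Pfkm (ENSMUSG00000033065; chromosome 15, 98092589 to 98132451, plus strand) was at 11.6, 12.6 and 10.8 CPM in the knockout livers and 13.3, 18.2 and 16.5 CPM in the wild-type livers. The genotypes did not overlap, with a smaller difference (−0.45 ± 0.17, edgeR adjusted p = 0.312). The liver subunit gene Pfkl was at 47.3, 43.3 and 36.3 CPM in the knockout livers and 38.9, 70.8 and 49.9 CPM in the wild-type livers, which overlap (−0.33 ± 0.22, adjusted p = 0.592). Muscle markers were near 0, with a summed level of 0.929 to 1.03 CPM in knockout and 0.611 to 1.04 CPM in wild-type livers for 8 genes, 2 of them at 0 in every library.

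Slc2a1, the glucose transporter of cells other than hepatocytes, was at 13.0, 13.8 and 10.0 CPM in knockout mice 1, 2 and 3, against 19.9, 9.01 and 31.03 CPM in wild-type mice 1, 2 and 3. Wild-type mouse 2 had the lowest value of all 6 and mouse 3 the highest (log2 fold change −0.71 ± 0.40, edgeR adjusted p = 0.530; −0.24 without wild-type 3 and −1.04 without wild-type 2). Pfkfb3, which makes the phosphofructokinase activator fructose 2,6-bisphosphate in many cell types, was at 18.0, 14.9 and 10.6 CPM in the knockout livers and 17.8, 19.7 and 14.5 CPM in the wild-type livers, which overlap (−0.25 ± 0.21; −0.07 without knockout 3). The brain-type aldolase Aldoc (−0.09 ± 0.28), the muscle-type enolase Eno3 (0.01 ± 0.22) and the heart-type lactate dehydrogenase Ldhb (0.33 ± 0.28) overlapped as well, Ldhb at 3.05, 3.76 and 3.50 CPM in the knockout livers and 2.23, 3.65 and 2.39 CPM in the wild-type livers. Each of these 4 genes had an adjusted p of at least 0.690 in edgeR. Their highest CPM in any mouse was 19.7, that of Pfkfb3 in wild-type 2.

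**Figure D3:**
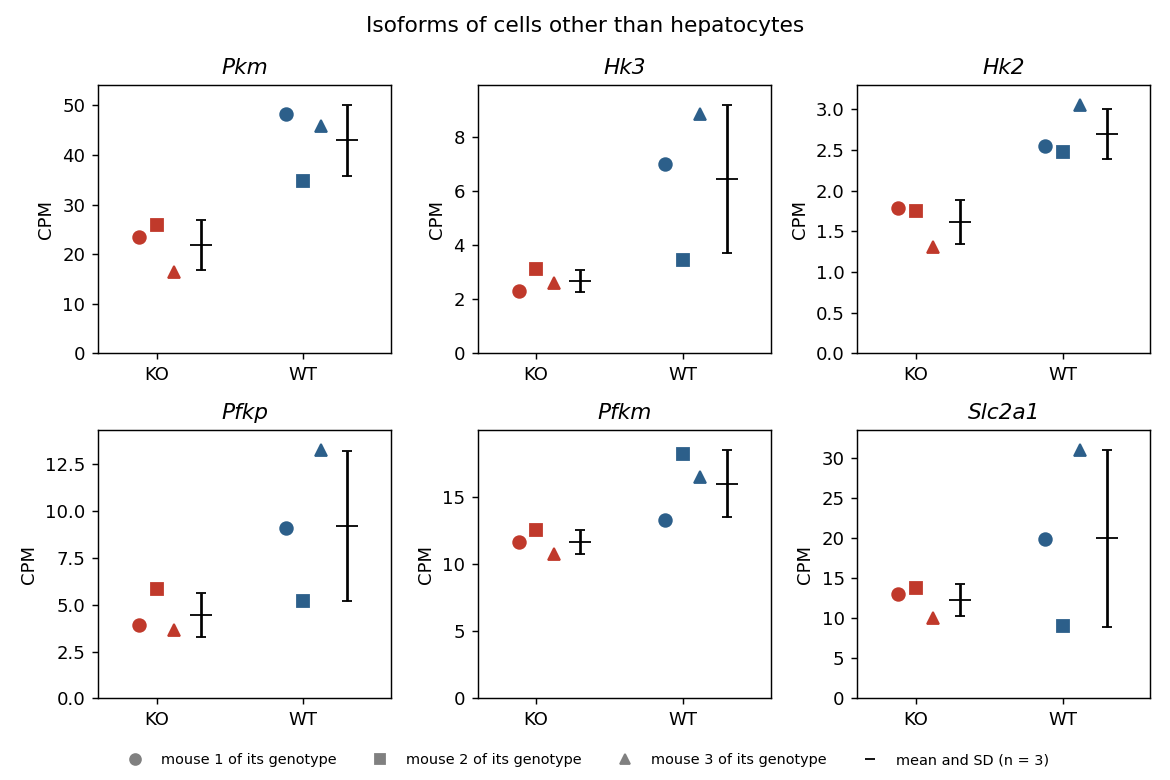
Points are the CPM of each mouse (circle, square and triangle for mice 1, 2 and 3 of a genotype) for 6 isoforms of cells other than hepatocytes, with the mean and SD of 3 mice beside them; the CPM axes start at 0. Pkm, Hk3, Hk2 and Pfkm show no overlap between the genotypes, and wild-type mouse 2 (square) lies within the knockout range for Pfkp and below it for Slc2a1.

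Markers of several cell types other than hepatocytes had lower means in the knockout as well. All 18 macrophage markers had a lower mean in the knockout, 15 of them at an unadjusted p under 0.05 and 0 at an adjusted p under 0.05 in edgeR (11 in DESeq2, 0 in limma-voom), with a median log2 fold change of −1.25. The summed level of the 18 was 388, 421 and 369.8 CPM in knockout livers and 1184, 475 and 1114 CPM in wild-type livers. Wild-type mouse 2 thus lay nearest to the knockout mice, as it did for Hk3 and Pkm. It was the highest of all 6 mice for 4 of the 11 isoforms of other cells, Pfkm among them, beside 17.5% of all genes. None of the 18 macrophage markers was at 0, and the most abundant were Lyz2, Cd5l, Clec4f and Mpeg1. All 7 tested of 9 cholangiocyte markers had a lower mean, with a summed level of 29.3 to 37.3 CPM in knockout and 54.2 to 67.7 CPM in wild-type livers. Of 12 stellate cell markers 11 had a lower mean, at a summed 438 to 569 CPM in knockout and 498 to 759.9 CPM in wild-type livers, which overlap. All 5 tested of 11 neutrophil markers had a lower mean, at a summed 7.41 to 10.8 CPM in knockout and 11.6 to 20.9 CPM in wild-type livers. The sinusoidal endothelial cell markers overlapped, at 265 to 369 CPM in knockout and 239 to 493 CPM in wild-type livers, with 6 of 11 lower. All 5 tested of 7 erythroid markers had a lower mean, at a summed 117 to 161 CPM in knockout and 60.7 to 296 CPM in wild-type livers, and 4 of 6 tested markers of T, B and NK cells a higher one, at 3.72 to 13.1 CPM in knockout and 4.18 to 17.5 CPM in wild-type livers; both overlapped. The part of these cells in the lower Pkm, Hk2, Hk3, Pfkm and Pfkp levels was not tested.

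Pck1, the cytosolic phosphoenolpyruvate carboxykinase that starts gluconeogenesis from oxaloacetate and is induced by glucagon and glucocorticoids in fasting (ENSMUSG00000027513; chromosome 2, 173153048 to 173159273, plus strand; 70.3 Mb from Cd44 on the same chromosome), was the hepatocyte gene with the lowest p. Its level was 692, 873 and 1020.1 CPM in knockout mice 1, 2 and 3, against 1043, 1540.3 and 3222 CPM in wild-type mice 1, 2 and 3. The highest knockout value lay just below the lowest wild-type value, and wild-type mouse 3 stood far above the other 5 mice. The log2 fold change was −1.17 ± 0.40 (edgeR adjusted p = 0.301; 0.0473 in DESeq2) and −0.58 without wild-type 3 (edgeR adjusted p = 0.380). Over all alternatives the adjusted p ran from 0.0473 to 0.735. Pck2, the mitochondrial form, was also highest in wild-type 3, at 20.98, 27.7 and 23.4 CPM in the knockout livers and 19.04, 21.9 and 50.8 CPM in the wild-type livers, and overlapped (−0.35 ± 0.37, adjusted p = 0.763).

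The other genes of glucose output gave no common direction. G6pc, the catalytic subunit of glucose 6-phosphatase, which releases free glucose (ENSMUSG00000078650; chromosome 11, 101367561 to 101377903, plus strand), was at 134, 364 and 229.5 CPM in knockout mice 1, 2 and 3, against 376, 911 and 127 CPM in wild-type mice 1, 2 and 3. The genotypes overlapped, with wild-type mouse 2 highest and wild-type mouse 3 lowest (log2 fold change −0.96 ± 0.69, edgeR adjusted p = 0.638; −0.04 without wild-type 2). Its partner Slc37a4, which carries glucose 6-phosphate into the endoplasmic reticulum, was at 256 to 348 CPM in knockout livers and 162 to 361 CPM in wild-type livers (0.15 ± 0.28, adjusted p = 0.881). Fbp1, fructose 1,6-bisphosphatase, was at 1138, 1173 and 1443 CPM in the knockout livers and 869.7, 1446 and 653 CPM in the wild-type livers, which overlap (0.34 ± 0.29, adjusted p = 0.696; 0.73 without wild-type 2 and 0.11 without wild-type 3). Pcx, pyruvate carboxylase, varied least of the 12, at 582 to 637 CPM in knockout livers and 599 to 721 CPM in wild-type livers (−0.09 ± 0.15, adjusted p = 0.862). Ppargc1a, a coactivator that induces gluconeogenic genes, was at 5.62 to 10.2 CPM in knockout livers and 6.04 to 11.9 CPM in wild-type livers (−0.30 ± 0.31, adjusted p = 0.755).

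Pklr, the liver pyruvate kinase that is induced by feeding (ENSMUSG00000041237; chromosome 3, 89136142 to 89146784, plus strand), was at 574, 766 and 629 CPM in knockout mice 1, 2 and 3, against 721, 1392 and 117 CPM in wild-type mice 1, 2 and 3. The knockout livers lay close together, inside the wild-type range, which spanned 11.9-fold in wild-type mice, against 1.33-fold in knockout mice. The log2 fold change was −0.18 ± 0.74 (edgeR adjusted p = 0.952), and its sign depended on the mouse left out, with 0.66 without wild-type 2 and −0.69 without wild-type 3. Pklr shares 711 exon bases with Hcn3 on the opposite strand, whose own counts came to 9.20% of those of Pklr. Slc2a2, the hepatocyte glucose transporter, was at 449.9, 556 and 669 CPM in the knockout livers and 579, 697 and 283 CPM in the wild-type livers (0.10 ± 0.32, adjusted p = 0.932), and Gckr, a regulatory protein of glucose phosphorylation, at 268 to 310.0 CPM in knockout livers and 202 to 339.6 CPM in wild-type livers (0.08 ± 0.20, adjusted p = 0.914). Both overlapped and were lowest in wild-type 3. Pfkfb1, the liver bifunctional enzyme of fructose 2,6-bisphosphate, was at 20.5, 13.9 and 19.1 CPM in the knockout livers and 13.8, 15.5 and 38.0 CPM in the wild-type livers, highest in wild-type 3 (−0.34 ± 0.40, adjusted p = 0.796).

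The promoters of Pck1 and Pklr are shown because wild-type 3 stood apart for both genes, highest for Pck1 and lowest for Pklr. They are RefSeq promoters of 250 bases before and 50 bases after a start, on the plus strand of GRCm38.p6: Pck1 at chr2:173152823-173153122 and, for the second of 2 listed Pklr starts, chr3:89136373-89136672. In Pck1 capitals mark the core of a cAMP response element, which begins 91 bases before the start, and a GC box, which begins 16 bases before it. In Pklr they mark a TATA box (TATAAA or TTTATA), which begins 31 bases before the start and which 13.6% of all promoters hold. The exact E-box CACGTG, held by 7.15% of all promoters, is in neither window. Imperfect E-boxes were not searched for, so their absence is not shown.
Pck1 promoter: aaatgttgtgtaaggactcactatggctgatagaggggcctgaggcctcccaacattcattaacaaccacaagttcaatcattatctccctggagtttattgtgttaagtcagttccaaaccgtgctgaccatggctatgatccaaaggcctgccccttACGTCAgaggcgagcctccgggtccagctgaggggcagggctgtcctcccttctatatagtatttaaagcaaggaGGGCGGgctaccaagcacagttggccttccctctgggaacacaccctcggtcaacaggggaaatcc
Pklr promoter: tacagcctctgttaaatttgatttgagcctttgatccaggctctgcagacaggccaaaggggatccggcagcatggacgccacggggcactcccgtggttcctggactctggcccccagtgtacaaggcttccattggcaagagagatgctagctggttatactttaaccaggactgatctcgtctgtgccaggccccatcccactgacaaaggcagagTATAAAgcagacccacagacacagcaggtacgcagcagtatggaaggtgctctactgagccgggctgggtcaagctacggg
Of the 31 genes, all of which had at least 1 promoter in the table, 7 had a cAMP element core, 4 an E-box, 20 a GC box and 5 a TATA box in at least 1 of their 50 promoters. The members' promoters were counted per gene, so these counts are not on the same footing as the share of all promoters.

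**Figure D4:**
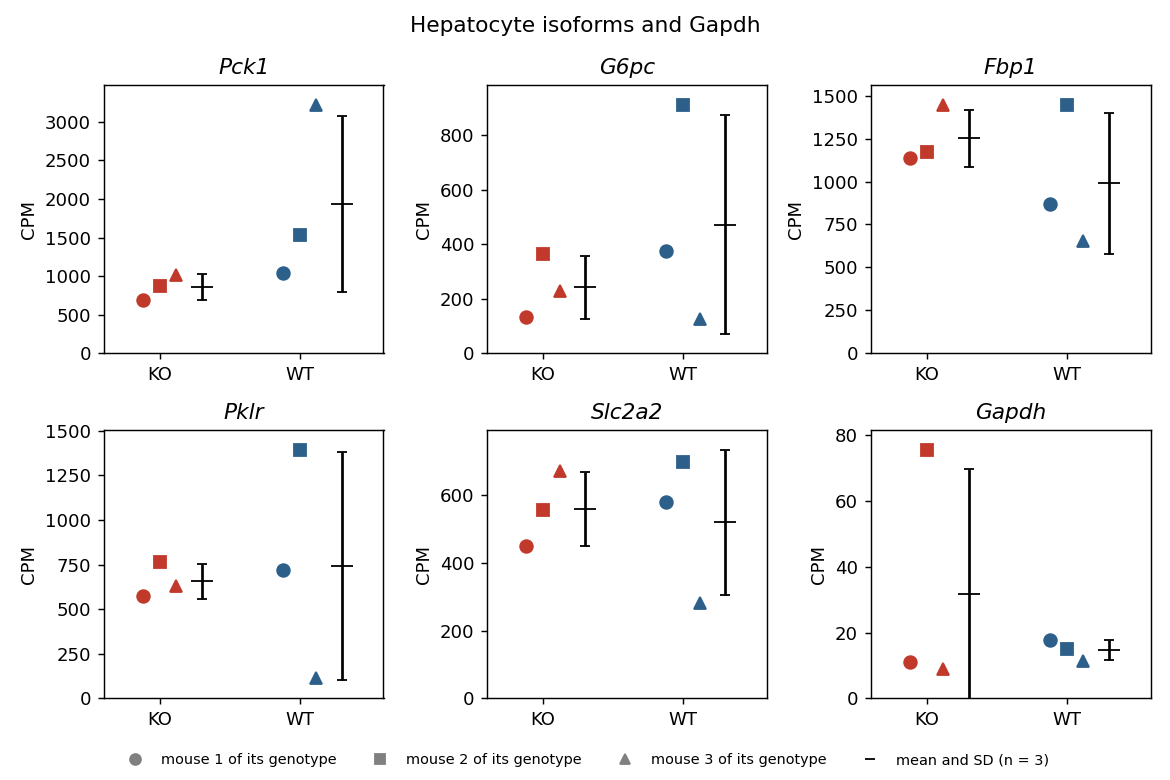
Points are the CPM of each mouse (circle, square and triangle for mice 1, 2 and 3 of a genotype) for 5 hepatocyte genes and Gapdh, with the mean and SD of 3 mice beside them; the CPM axes start at 0, and the lower SD bar of Gapdh is cut there. Knockout livers lie close together for Pklr, whereas wild-type livers run from 117 to 1392 CPM.

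The hepatocyte isoforms varied more among the wild-type than among the knockout mice. All 12 had a wider ratio of the highest to the lowest mouse in the wild-type group, beside 66.9% of all tested genes. The same held for 7 of the 8 shared enzymes and 7 of the 11 isoforms of other cells. The median ratio of the 12 hepatocyte isoforms was 1.35 in knockout and 2.35 in wild-type mice, beside 1.28 in knockout and 1.42 in wild-type mice over all genes. For the 11 isoforms of other cells it was 1.37 in knockout and 1.47 in wild-type mice, and for the 8 shared enzymes 1.13 in knockout and 1.45 in wild-type mice. Wild-type mouse 2 had the highest value of all 6 mice for 9 of the 12 hepatocyte isoforms, beside 17.5% of all genes. Wild-type mouse 3 had the lowest value for 6 of the 12, beside 23.9% of all genes. It had the highest value for 3 of the 12, Pck1, Pck2 and Pfkfb1, a share near the 23.6% of all genes. With 3 mice per genotype, this difference in spread was not tested. Pericentral hepatocyte markers, summed over 10 genes, also ran widest in wild-type mice, at 6046, 5225 and 6625 CPM in knockout livers and 4284, 8191 and 2738 CPM in wild-type livers, while the 9 periportal markers came to 4678 to 6061 CPM in knockout and 4376 to 5862 CPM in wild-type livers.

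Of the 8 enzymes that most cells share, 7 had log2 fold changes between −0.41 and 0.06, and Gapdh stood outside this range. Pgk1, phosphoglycerate kinase, was at 369 ± 14.4 CPM in knockout and 354 ± 13.7 CPM in wild-type livers (log2 fold change 0.06 ± 0.13), Pgam1, phosphoglycerate mutase, at 165 ± 6.56 CPM in knockout and 173 ± 16.1 CPM in wild-type livers (−0.07 ± 0.12), and Tpi1, triosephosphate isomerase, at 404 ± 35.6 CPM in knockout and 412 ± 64.7 CPM in wild-type livers (−0.03 ± 0.16). Eno1, the main enolase, was at 862 ± 48.7 CPM in knockout and 833 ± 233 CPM in wild-type livers (0.05 ± 0.23), and Ldha, the lactate dehydrogenase of liver and muscle, at 545, 469.5 and 533 CPM in the knockout livers and 479.6, 431 and 897 CPM in the wild-type livers (−0.22 ± 0.28). Each of these 5 had an adjusted p of at least 0.807 in edgeR, and the sign was turned by leaving out 1 mouse for Pgam1, Tpi1, Eno1 and Ldha. Wild-type mouse 3 was highest for Ldha and lowest for Eno1, at 572 CPM. Gpi1, glucose 6-phosphate isomerase, was at 411, 450.0 and 472 CPM in the knockout livers and 655, 910.4 and 210.2 CPM in the wild-type livers. Its highest and lowest wild-type mice were further apart than those of any other shared enzyme (4.33-fold), while its knockout mice were close (1.15-fold; log2 fold change −0.41 ± 0.46, adjusted p = 0.781; −0.82 without wild-type 3 and 0.05 without wild-type 2). Aldoa, the aldolase of muscle and most other cells, was at 163, 172 and 157 CPM in the knockout livers and 229.7, 179 and 188 CPM in the wild-type livers. The genotypes did not overlap, by a narrow margin between knockout 2 and wild-type 2 (−0.28 ± 0.14, edgeR adjusted p = 0.449).

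Gapdh, glyceraldehyde 3-phosphate dehydrogenase, was counted at 11.0, 75.4 and 9.05 CPM in knockout mice 1, 2 and 3, against 17.7, 14.9 and 11.5 CPM in wild-type mice 1, 2 and 3. Knockout mouse 2 stood far above the other 5, which lay between 9.05 and 17.7 CPM. The log2 fold change of 1.12 ± 0.82 (edgeR adjusted p = 0.646) came to −0.55 without knockout 2. Per kb of annotated exon, Gapdh was at 7.69 in knockout and 3.56 in wild-type livers (mean CPM per kb), whereas Pgk1, the next enzyme of the path, was at 165 in knockout and 158 in wild-type livers. In a transcript model of Gapdh, 82.5% of 50-base windows also occur in transcripts of 218 other genes, and its count is reported as uncertain. The part of reads with several matches in its low level was not tested. The same share was 72.2% for Eno1, 68.0% for Pgk1 and 41.5% for Pgam1, and 0% for Pck1, G6pc, Pklr, Fbp1, Hk2, Hk3, Pfkm and Pfkp.

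Set per kb of exon, Pkm and Slc2a1 were small parts of the whole-liver level at their steps. Of the pyruvate kinase level (Pkm and Pklr together), Pkm made up 2.57%, 2.14% and 1.65% in knockout livers, against 4.15%, 1.59% and 20.2% in wild-type livers. The wild-type livers spread widely, and mouse 3, with its low Pklr, stood far above the others. Of the Slc2a1 and Slc2a2 level, Slc2a1 made up 4.53%, 3.91% and 2.40% in knockout livers, against 5.35%, 2.08% and 15.3% in wild-type livers, again highest in wild-type 3. Pck2 made up 1.31%, 1.37% and 1.00% of the Pck1 and Pck2 level in knockout livers, against 0.796%, 0.622% and 0.688% in wild-type livers, and every knockout liver lay above every wild-type liver. Among the phosphofructokinase subunits Pfkl made up 65.3%, 60.7% and 60.9% in knockout livers, against 55.6%, 64.5% and 55.8% in wild-type livers, which overlap. Pfkm, classed with the isoforms of other cells, was no small part, at 34.5% ± 2.15 in knockout and 36.0% ± 2.51 in wild-type livers. This share depends on the length used. Annotated exons came to 3340 bases for Pfkm, 6675 for Pfkl and 13401 for Pfkp. The longest coding transcripts were closer in length, at 2879, 3730 and 4145 bases, and would give Pfkm a smaller share. Which liver cells the Pfkm reads came from was not tested. Ldhb was a small part of lactate dehydrogenase in both genotypes, at 1.40% ± 0.247 in knockout and 1.10% ± 0.608 in wild-type livers.

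A ratio of 2 genes within a liver is free of library scaling, and 8 such pairs were compared. The log2 ratio of Pkm to Pklr, in CPM per kb, was −5.24, −5.51 and −5.89 in knockout livers and −4.53, −5.95 and −1.98 in wild-type livers. Between the genotypes, which overlapped, the difference was −1.40 in the means (two-sided exact permutation test, p = 0.400, 0.800 adjusted over the 8 pairs). For Pfkp to Fbp1, an enzyme of glycolysis against its gluconeogenic opponent, it was −11.15, −10.63 and −11.60 in knockout livers and −9.55, −11.08 and −8.60 in wild-type livers. Here wild-type mouse 2 lay among the knockout mice, and the difference was −1.38 (exact permutation p = 0.200, adjusted 0.800). Without wild-type 3 the differences were −0.31 for Pkm to Pklr and −0.81 for Pfkp to Fbp1. The other 6 pairs differed by between −0.73 (Slc2a1 to Slc2a2) and 0.49 (Ldhb to Ldha), all with overlap. The adjusted exact permutation p was 0.800 or more for each of the 8, where 3 against 3 mice cannot give an unadjusted p below 0.1.

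**Figure D5:**
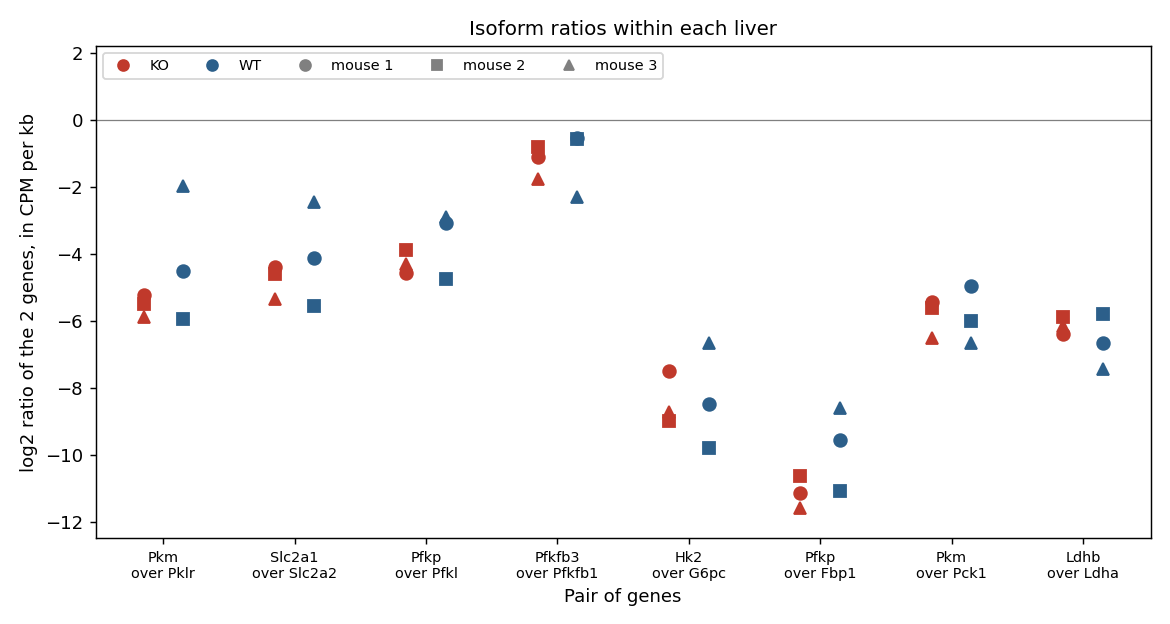
Points are the log2 ratio of 2 genes within each liver, in CPM per kb of exon, for 8 pairs that set an isoform of other cells over a hepatocyte or shared gene (red knockout, blue wild-type; circle, square and triangle for mice 1, 2 and 3). The genotypes overlap in all 8 pairs, and wild-type mouse 3 has the highest ratio in 5 of them, Pkm to Pklr, Slc2a1 to Slc2a2, Pfkp to Pfkl, Hk2 to G6pc and Pfkp to Fbp1. It has the lowest ratio in the others, Pfkfb3 to Pfkfb1, Pkm to Pck1 and Ldhb to Ldha.

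The wider network of glucose metabolism was followed through 6 further lists, and 0 of their genes passed an adjusted p of 0.05 in edgeR or limma-voom, while DESeq2 called Sik1. Genes are named from those with the lowest p in each list, and the counts at an unadjusted p under 0.05 stand beside 12.8% of all tested genes in either direction, 7.59% lower and 5.22% higher. Among other glycolysis genes, of which 13 were tested, 5 had a higher and 8 a lower mean. Bpgm, which makes 2,3-bisphosphoglycerate in red cells, was lower in every knockout than in any wild-type liver (−0.32 ± 0.15, adjusted p = 0.420), while Adpgk (0.28 ± 0.13) and Pfkfb4 (−0.82 ± 0.46) overlapped.

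Of the genes that handle pyruvate and lactate (of 23 tested, 10 with a higher and 13 with a lower mean), 2 had an unadjusted p under 0.05, both lower in the knockout, near the 7.59% of all genes that were lower. Slc16a3, the lactate exporter of glycolytic cells such as macrophages, was at 0.531, 1.45 and 0.754 CPM in the knockout livers and 1.47, 2.09 and 2.39 CPM in the wild-type livers, with a narrow margin between knockout 2 and wild-type 1 (−1.07 ± 0.42, edgeR adjusted p = 0.352; −1.62 without knockout 2). Pdk4, the kinase that shuts pyruvate dehydrogenase in fasting, was at 12.3, 16.8 and 12.3 CPM in the knockout livers and 28.9, 12.8 and 35.9 CPM in the wild-type livers, with wild-type 2 among the knockout mice (−0.91 ± 0.36, adjusted p = 0.358; 0.0429 without wild-type 2, and a fold change of −0.60 without wild-type 3). Gpt2, the mitochondrial alanine aminotransferase (0.47 ± 0.24), and Dlat, a pyruvate dehydrogenase subunit (−0.44 ± 0.25), overlapped. Of the glycogen genes (of 20 tested, 7 with a higher and 13 with a lower mean), 3 had an unadjusted p under 0.05, all lower, beside 7.59% of all genes that were lower. Pygb, the glycogen phosphorylase of brain and other tissues, did not overlap, at 6.77, 10.1 and 6.92 CPM in the knockout livers and 11.8, 11.6 and 23.4 CPM in the wild-type livers (−0.97 ± 0.32, adjusted p = 0.277; −0.55 without wild-type 3). Ppp1r3c, which targets protein phosphatase to glycogen (−0.47 ± 0.18), and the phosphorylase kinase subunit Phka2 (−0.41 ± 0.17) overlapped, and the subunit Phka1 (−0.39 ± 0.18, adjusted p = 0.419) did not.

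The pentose phosphate list, whose genes make NADPH and ribose from glucose 6-phosphate (of 10 tested, 4 with a higher and 6 with a lower mean), had 2 genes at an unadjusted p under 0.05, both lower and without overlap. G6pdx, the entry enzyme glucose 6-phosphate dehydrogenase, was at 5.84, 6.86 and 6.31 CPM in the knockout livers and 11.9, 7.44 and 11.9 CPM in the wild-type livers (−0.71 ± 0.22, edgeR adjusted p = 0.264), and Taldo1, transaldolase, at 105, 111 and 104 CPM in the knockout livers and 124, 132 and 139.8 CPM in the wild-type livers (−0.31 ± 0.11, adjusted p = 0.306). Pgd (−0.63 ± 0.39) and Rbks (0.28 ± 0.19) overlapped. Of the fructose and glycerol genes (of 9 tested, 4 with a higher and 5 with a lower mean), 1 had an unadjusted p under 0.05. This was the glycerol kinase Gk, lower in the knockout (−0.39 ± 0.15, edgeR adjusted p = 0.359), beside 7.59% of all genes that were lower. The glycerol channel Aqp9 (0.36 ± 0.16, adjusted p = 0.410) was higher in every knockout than in any wild-type liver, and Gpd1 (−0.53 ± 0.26) and Akr1b3 (−0.64 ± 0.34) overlapped.

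Among the hormone and transcription regulators (of 31 tested, 19 with a higher and 12 with a lower mean), 4 had an unadjusted p under 0.05, 2 higher and 2 lower in the knockout, close to the 12.8% of all genes. Sik1, a kinase induced by cAMP that restrains gluconeogenic transcription, was at 18.6, 26.0 and 27.5 CPM in knockout mice 1, 2 and 3, against 35.4, 41.5 and 45.0 CPM in wild-type mice 1, 2 and 3 (log2 fold change −0.76 ± 0.17, edgeR adjusted p = 0.217; 0.0303 in DESeq2, the lowest of 0.0303 to 0.698 over all alternatives). Cebpb, a factor that acts on Pck1, was at 129.5, 149.6 and 163 CPM in the knockout livers and 96.5, 107 and 126 CPM in the wild-type livers (0.43 ± 0.15, adjusted p = 0.294). Tcf7l2, a nuclear partner of beta-catenin, was lower in every knockout liver (−0.39 ± 0.17, adjusted p = 0.383).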

How the data were processed

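Poly(A) RNA of whole liver was sequenced in 1 library per mouse. The deposited file holds raw counts per gene that the authors made. Per the submitters' processing notes, HISAT2 2.0.5, StringTie 1.3.3b, featureCounts 1.5.0-p3 and GRCm38.p6 were used. For the annotation release, the strand setting and reads with several matches, the sources used here give nothing. Reads of overlapping genes on opposite strands may therefore have been counted together.

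Of 54682 rows, 150 had no gene name and were left out (0.273% to 0.509% of counts per library). IDs were named from GENCODE M21 (54495 matched). A second Aldoa row with 0 to 3 counts per library was treated as a close copy. Counts were scaled by TMM, filtered with filterByExpr and tested with edgeR 4.0.16 (robust quasi-likelihood fit, genotype only) in R 4.3.3, with Benjamini-Hochberg adjustment over 14145 genes. The 6 mice are separate animals per the labels. Log2 ratios of gene pairs used a prior count of 0.5 and an exact permutation test. Levels per kb were CPM divided by annotated exon length, which understates genes with long unused exons. The fitting code was tested on simulated data, drawn with dispersions that edgeR estimated. There DESeq2 made a larger share of false calls than edgeR, so calls by DESeq2 alone are weaker evidence. In the same simulation edgeR recovered fewer of the changed genes than DESeq2, so a gene that edgeR did not call may still differ. How the tools compare under other dispersions was not tested.

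The 31 genes, their classes, the marker and pathway lists and the pairs were chosen with earlier results of these data known. Values by mouse are given for genes at an unadjusted p under 0.05, for those without overlap and for the genes of the pairs, and up to 4 genes with the lowest p are named per pathway list; a few genes of these lists are not reported here. Alternatives were RLE scaling, no low-count filter, a CPM of at least 1 in 3 libraries, DESeq2 1.42.0, limma-voom (limma 3.58.1), the mouse number as a block, protein-coding genes only, an adjusted p of 0.1, a prior of 1 count, counts summed with close copies, and each library left out in turn. Floors cover counting error only.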

Additional observations from a re-analysis of the deposited data

How the results depend on the processing

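Over all alternatives, 703 values of single genes kept their direction and their side of the threshold. Of counts or medians, 66 stayed near their main value, and 53 differences of gene pairs kept their sign. The single-gene values covered the 31 genes, the pathway genes with the lowest p and Cd44. Of them, 22 turned sign, 4 passed the threshold no longer and 5 newly passed it. All 4 that passed no longer were values of Cd44, the only one of these genes called in edgeR with all 6 libraries. Of counts or medians, 13 moved and 1 turned sign, and 11 differences of pairs turned sign. The number of genes called, 2 of all tested in edgeR, was 6 with no low-count filter, 3 at an adjusted p of 0.1, 287 with DESeq2, 0 with limma-voom and 1 with the replicate block, and ran from 0 (without knockout 2 or 3) to 151 (without wild-type 2) when 1 library was left out. The number among the 31 genes, 0 in edgeR, was 2 with DESeq2 and 0 to 1 with 1 library left out, the 1 being Hk3 without wild-type 2. The 6 of the 31 at an unadjusted p under 0.05 became 2 to 8 with 1 library left out. The median of the shared enzymes ran from −0.096 to 0.053, positive without wild-type 3. The log2 fold change of Pklr was 0.37 with limma-voom and 0.34 with the replicate block, against −0.18 in edgeR; the cause was not tested. With 1 library left out, the sign turned for 15 of the 31 genes, none of them at an unadjusted p under 0.05 with all 6 libraries. Their log2 fold changes ran from −0.33 to 0.15 for Aldoc, −0.16 to 0.23 for Eno1, −0.12 to 0.16 for Eno3, −0.55 to 1.56 for Gapdh, −0.094 to 0.28 for Gckr, −0.82 to 0.047 for Gpi1, −0.41 to 0.18 for Ldha and −0.60 to 0.23 for Pck2. They ran from −0.14 to 0.0094 for Pcx, −0.59 to 0.28 for Pfkfb1, −0.11 to 0.0140 for Pgam1, −0.69 to 0.66 for Pklr, −0.19 to 0.38 for Slc2a2, −0.11 to 0.43 for Slc37a4 and −0.12 to 0.099 for Tpi1. Among the gene pairs, the log2 difference ran from −0.82 to 0.74 for Hk2 to G6pc, −0.67 to 0.21 for Pfkfb3 to Pfkfb1, −0.36 to 0.49 for Pkm to Pck1 and −1.48 to 0.064 for Slc2a1 to Slc2a2. Same-numbered mice showed no shared deviation (correlations −0.0126, −0.00649 and −0.00503, against −0.0807 to 0.0884 for differently numbered mice). With 3 mice per genotype this cannot show whether the numbers pair the mice, and the labels do not say. With the replicate block 4 of the 31 genes were at an unadjusted p under 0.05 in edgeR. Hk2, Hk3 and Pfkp rest on 19 to 260 counts per library.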
